A study of Mus with 6 samples.

Results

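The mitochondrial ribosomal protein genes, here the genes whose symbol begins with Mrpl or Mrps and a number, were followed in TCR-activated CD4+ T cells cultured with or without an antibody against VEGF-B. The table listed 78 genes with such a symbol, and 77 of them had a mean of at least 1 FPKM (fragments scaled by transcript length and by the mapped fragments of the library) over the 6 libraries, out of 8816 genes tested. The remaining gene, Mrps10, was not tested and read 0.682, 0.512 and 0.354 FPKM with anti–VEGF-B and 0.887, 0.991 and 0.828 FPKM with IgG. Wild-type naive CD4+ T cells from mouse spleen had been stimulated for 3 days with anti-CD3 (5 μg/mL), anti-CD28 (2 μg/mL) and IL-2 (100 U/mL), so that every library came from activated cells. Either neutralizing anti–VEGF-B or normal goat IgG, each at 1 μg/mL, was present, with 3 libraries per antibody. No unstimulated cells were part of the comparison, and the antibody in the medium is the difference between the groups. The labels do not say whether the 3 libraries of a group came from separate animals, so p-values measure the spread between these libraries, which may be technical.

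Mitochondria carry their own ribosome, whose RNAs are encoded in mitochondrial DNA and whose proteins are all encoded in the nucleus, made in the cytosol and imported. This ribosome translates only the proteins that mitochondrial DNA encodes, which are subunits of the respiratory chain and ATP synthase. Its small subunit decodes the mRNA and its large subunit joins the amino acids and docks on the inner membrane. Part of its proteins have relatives in bacterial ribosomes, and the rest were added during the evolution of mitochondria. Naive T cells enlarge their mitochondria and raise mitochondrial translation when they leave quiescence. A few symbols mislead: the products of Mrps30 and Mrps18a sit in the large subunit, and that of Mrps36 belongs to the α-ketoglutarate dehydrogenase complex of the citric acid cycle.

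The libraries differed between the antibodies in more than single genes. Genes listed at 0 numbered 91, 59 and 76 with anti–VEGF-B and 36, 37 and 37 with IgG, and the median log2(FPKM + 1) of all genes tested was 2.69 to 2.74 and 2.85 to 3.02, so that both measures were apart. Their part in the results was not tested. FPKM summed to between 260058 and 276622, and correlations of log2 values between libraries lay between 0.967 and 0.992. Cd4 read 64.0 to 74.6 FPKM in the 6 libraries, and the 2 markers of CD8+ T cells together read 2.29 to 4.69 FPKM. Of 7 myeloid markers 3 were listed, and their sum was 19.8 FPKM in IgG replicate 3 against 3.95 to 5.11 FPKM in the other 5 libraries, mostly from Lyz2. Of the B cell markers only Cd79b was listed, at 0.665 to 1.34 FPKM. None of the markers of NK and erythroid cells looked up was listed, so those cells could not be assessed. Markers of all T cells summed to 383 to 430 FPKM with anti–VEGF-B and 408 to 478 FPKM with IgG. In the limma fit 2 of the 7 such markers fell (28.6%, against 23.8% of all genes tested) and 5 were not called. Log2 fold changes of the 7 ran from -0.51 to 0.10, with a median of -0.13, against -0.15 over all genes tested. The 2 were Cd3e and Cd5, both T cell surface proteins, which fell by 0.51 and 0.38 on the log2 scale (adjusted p = 0.0197 and 0.0343), calls that were lost without anti–VEGF-B replicate 2 (0.0546 and 0.0846), anti–VEGF-B replicate 3 (0.0711 and 0.117) or IgG replicate 2 (0.0580 and 0.101), and for Cd5 without IgG replicate 3 (0.0614). After median centring the limma adjusted p was 0.0631 for Cd3e and 0.197 for Cd5, whose value was then -0.18. Their part in the results for the ribosomal genes was not tested. In bulk RNA, fewer cells of a type and less RNA per cell cannot be told apart. IgG replicate 2 held the highest value of 50.9% of all genes tested and of 35.1% of the ribosomal genes.

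Most mitochondrial ribosomal protein genes differed little between anti–VEGF-B and IgG. Of the 77 genes, 6 fell and 2 rose at an adjusted p under 0.05 in limma, and 69 were not called. The 8 called genes were 10.4% of the list, where 28.7% of all genes tested were called in either direction. The 6 falls were Mrps2, Mrpl42, Mrpl44, Mrpl41, Mrpl57 and Mrpl49, and the 2 rises were Mrps30 and Mrpl18. Falls made up 7.79% of the genes, where 23.8% of all genes tested were called lower, and rises made up 2.6%, where 4.87% of all genes tested were called higher. The share called lower was therefore below the background, and the list was not tested as a set. All fold changes are on the scale of log2(FPKM + 1), anti–VEGF-B minus IgG, on which the change of a gene with few FPKM comes out too small.

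The median of the 77 log2 fold changes was -0.085, with quartiles of -0.22 and 0.059. The standard error of a single gene had a median of 0.10. Over all genes tested the median was -0.15, so the ribosomal genes lay 0.067 above it, and 48 of the 77 were above that median. Values were below 0 for 53 of the genes (68.8%, against 71.2% of all genes tested). An absolute log2 fold change under 0.25 was measured for 59 of them (76.6%, against 56.8% of all genes tested). The 3 values of one group lay wholly below those of the other for 17 genes lower with anti–VEGF-B (22.1%, against 38.5% of all genes tested) and wholly above for 9 (11.7%, against 10.5%). The side on which the genes fell depended on the scaling between libraries. After median centring of each library, the median over all genes tested became 0.049, the median of the ribosomal genes 0.12, and 1 was called lower and 13 higher. Quantile normalization gave 2 lower and 9 higher and a median of 0.099, and cyclic loess normalization the same counts and a median of 0.087. Under these scalings 9.15%, 10.4% and 10.6% of all genes tested were lower and 15.5%, 9.98% and 9.66% higher. Relative to the median of all genes tested the ribosomal genes were above it in each of these fits.

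**Figure D1:**
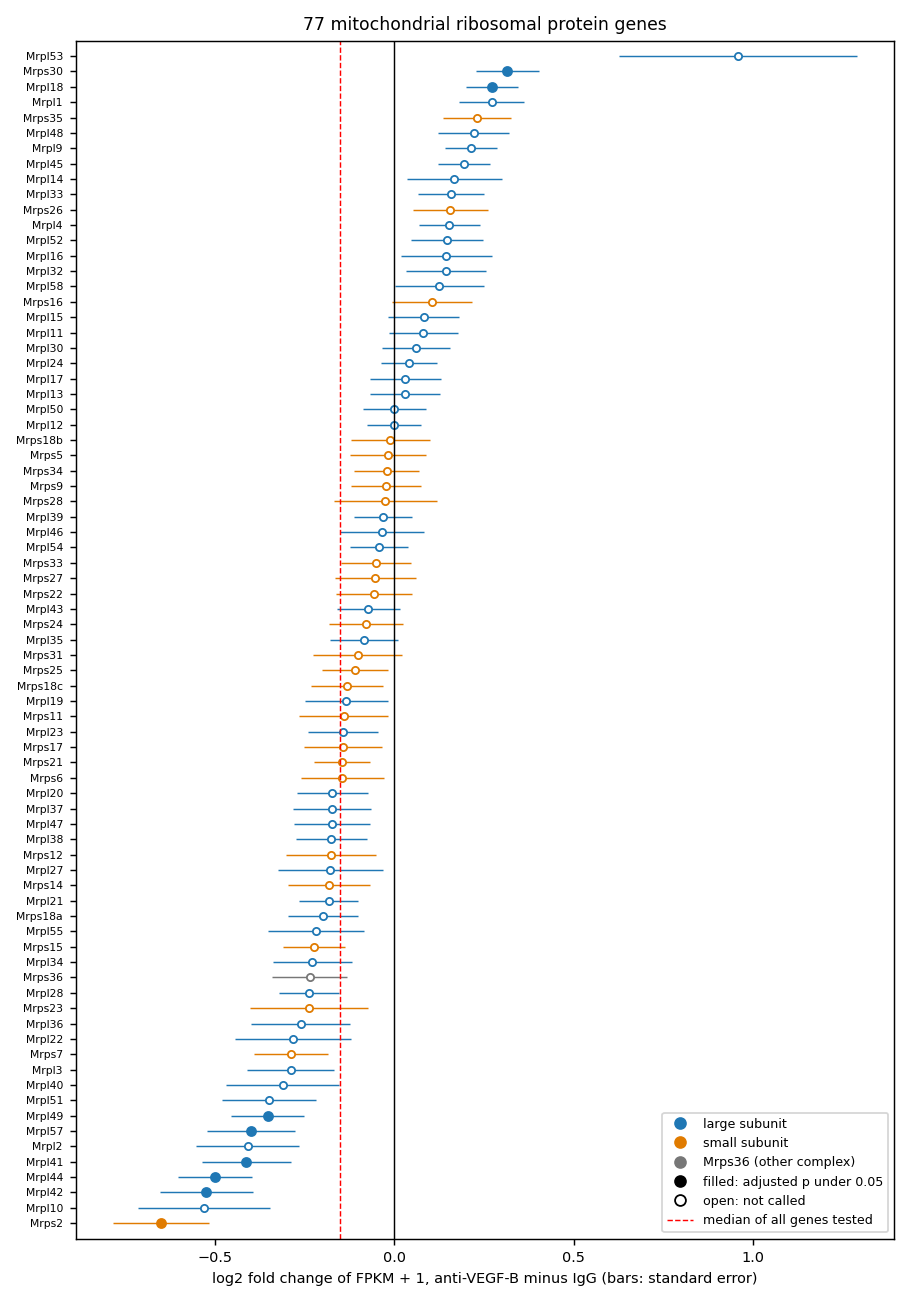
Log2 fold change of FPKM + 1 (horizontal axis, anti–VEGF-B minus IgG, n = 3 libraries each) for the 77 mitochondrial ribosomal protein genes, ordered by value, with bars for the standard error from limma. Colors give the subunit, filled points the 6 lower and 2 higher genes called, and the dashed line the median of all genes tested (-0.15), and most points lie between -0.25 and 0.25.

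Mrps2, on chromosome 2 (28468066 to 28471178, GRCm38), encodes a small subunit protein with a bacterial relative. Its FPKM were 0.912, 0.767 and 0.551 with anti–VEGF-B and 1.48, 2.23 and 1.54 with IgG. All 3 anti–VEGF-B libraries were below every IgG library, and the mean was 42.5% of that with IgG, the lowest share among the 77 genes. This gave a log2 fold change of -0.65 ± 0.13 (SE, n = 3 and 3, limma adjusted p = 0.0115). Mrps2 was also the gene with the lowest mean level of the 77, at 1.25 FPKM.

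Mrpl44 (chromosome 1, 79776018 to 79781445) encodes a large subunit protein with the fold of an RNase III enzyme. It read 6.81, 6.51 and 6.66 FPKM with anti–VEGF-B and 10.7, 10.4 and 8.48 FPKM with IgG. The groups were apart, with a spread of 0.146 FPKM (SD) in the first and 1.23 FPKM in the second. The log2 fold change was -0.50 ± 0.10 (limma adjusted p = 0.0116). Of the falls, Mrps2 and Mrpl44 were called under the most alternatives. Over all alternatives their values were at most -0.42 and -0.30. Both lost the call when the variance was not moderated (limma adjusted p = 0.0840 and 0.0748), and Mrpl44 also after median centring (0.0574).

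The other 4 falls were genes of large subunit proteins that bacteria lack. Mrpl42 read 2.28, 1.95 and 1.86 FPKM with anti–VEGF-B and 3.70, 3.81 and 2.65 FPKM with IgG, a log2 fold change of -0.53 ± 0.13 (limma adjusted p = 0.0193). Mrpl41, whose product has also been described as a partner of BCL2 in cell death, read 1.27, 1.17 and 1.31 against 1.79, 2.55 and 1.72 FPKM (-0.41 ± 0.12, limma adjusted p = 0.0359). In both genes the groups were apart, and for Mrpl41 the highest value came from IgG replicate 2. Mrpl57 read 1.38, 1.52 and 1.05 FPKM with anti–VEGF-B and 2.38, 2.06 and 1.73 FPKM with IgG (-0.40 ± 0.12, limma adjusted p = 0.0399). Mrpl49 read 7.62, 6.22 and 6.44 against 8.55, 9.62 and 8.54 FPKM (-0.35 ± 0.10, limma adjusted p = 0.0320). Here too no anti–VEGF-B library reached an IgG library, and the means were between 59.9% and 76.0% of those with IgG for the 4 genes.

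Each of these 4 calls was lost without some single library. Without anti–VEGF-B replicate 2 the limma adjusted p was 0.0542 for Mrpl42, 0.0934 for Mrpl41, 0.0514 for Mrpl57 and 0.0934 for Mrpl49. It was 0.0704, 0.0842, 0.145 and 0.106 in the same order without anti–VEGF-B replicate 3, and 0.0543, 0.0786, 0.0834 and 0.0870 without IgG replicate 2. Mrpl41 and Mrpl57 also lost the call without anti–VEGF-B replicate 1 (0.0785 and 0.0767), Mrpl57 without IgG replicate 1 (0.0949) and Mrpl49 without IgG replicate 3 (0.0586). Mrps2 and Mrpl44 were the falls still called in each of these fits. After quantile, median and cyclic loess scaling none of the 4 was called, with log2 fold changes of -0.33 to -0.29 for Mrpl42, -0.21 to -0.18 for Mrpl41, -0.20 to -0.17 for Mrpl57 and -0.19 to -0.15 for Mrpl49. Without either anti–VEGF-B replicate 2 or 3, or without IgG replicate 2, 2 of the 77 genes were called lower (2.6%). In these fits 16.2%, 7.88% and 12.5% of all genes tested were called lower.

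**Figure D2:**
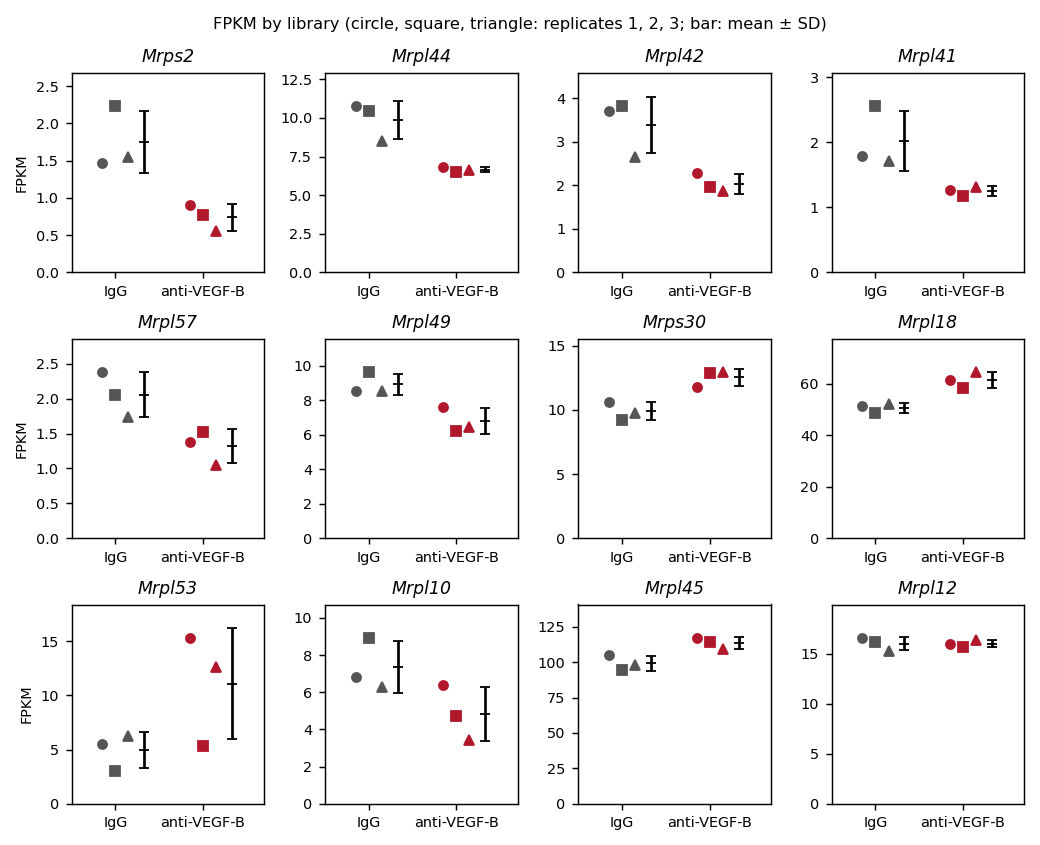
FPKM (vertical axis, from 0, a scale for each gene) of 12 mitochondrial ribosomal protein genes in each library with IgG and anti–VEGF-B, with bars for the mean ± SD (n = 3). The first 6 genes are the falls and the next 2, Mrps30 and Mrpl18, the rises, with groups that do not overlap, and Mrpl53 has 2 anti–VEGF-B libraries far above the third.

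Among genes that were not called, Mrpl10 and Mrpl2 had the most negative values. Mrpl10 encodes the base of the stalk to which translation factors bind. Its FPKM were 6.36, 4.71 and 3.45 with anti–VEGF-B and 6.82, 8.93 and 6.29 with IgG, so that the groups overlapped in 1 library each (log2 fold change -0.53 ± 0.18, limma adjusted p = 0.0573). Mrpl12, the stalk protein that Mrpl10 anchors, lay at 16.0 FPKM in both groups (-0.0013 ± 0.076, limma adjusted p = 0.992). Mrpl11, the third protein of the stalk region, read 5.02 to 5.62 FPKM with anti–VEGF-B and 4.76 to 5.44 FPKM with IgG (0.080 ± 0.097, limma adjusted p = 0.545). The stalk genes thus had values on both sides of 0 and none was called as deposited. Under quantile, median and cyclic loess scaling Mrpl11 was called higher, at 0.29, 0.28 and 0.28 (limma adjusted p = 0.0322, 0.0325 and 0.0335). Mrpl2, a core protein near the peptidyl transferase center, had groups apart, at 3.70 to 4.89 FPKM with anti–VEGF-B and 5.32 to 7.69 FPKM with IgG (-0.41 ± 0.14, limma adjusted p = 0.0581). Without anti–VEGF-B replicate 1 Mrpl10 was called (limma adjusted p = 0.0289), as was Mrpl2 without IgG replicate 3 (0.0482).

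Mrps30 (chromosome 13, 118378381 to 118387252) rose. Despite its symbol its product is a large subunit protein that is specific to mitochondria. The FPKM were 11.8, 12.9 and 13.0 with anti–VEGF-B and 10.6, 9.25 and 9.78 with IgG, with no overlap (log2 fold change 0.31 ± 0.088, limma adjusted p = 0.0284). Mrpl18 (chromosome 17, 12911349 to 12916345), one of the most abundant of the genes, encodes a protein of the central protuberance of the large subunit. It read 61.7, 58.3 and 64.6 FPKM with anti–VEGF-B and 51.6, 48.5 and 52.2 FPKM with IgG, again apart (0.27 ± 0.073, limma adjusted p = 0.0250). Mean levels with anti–VEGF-B were 127% and 121% of those with IgG. The call of Mrps30 was lost without anti–VEGF-B replicate 2 or 3 (limma adjusted p = 0.0768 and 0.10) and without IgG replicate 2 or 3 (0.0770 and 0.0708). That of Mrpl18 was lost without anti–VEGF-B replicate 1 or 3 or IgG replicate 2 (0.0627, 0.0986 and 0.0722). Under quantile, median and cyclic loess scaling both were called, with values up to 0.52 for Mrps30 and 0.47 for Mrpl18.

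Mrpl53, a large subunit protein near the stalk base, had the most positive value of the 77 genes without passing the test. It read 15.3, 5.37 and 12.6 FPKM with anti–VEGF-B and 5.53, 3.06 and 6.28 FPKM with IgG. The anti–VEGF-B library at 5.37 FPKM was within the IgG range, so the groups overlapped, and the log2 fold change of 0.96 had a standard error of 0.33 (limma adjusted p = 0.0573). Without that library, anti–VEGF-B replicate 2, it was 1.37 and was called (limma adjusted p = 0.0181). Mrpl53 was also called after median centring (0.0444) and after scaling to the same sum of FPKM (0.0473). The whole span of Mrpl53 (chromosome 6, 83109040 to 83109939) lies within that of Gm42688 on the same strand (83101617 to 83109939). Gm42688 read 0.616, 2.68 and 1.06 FPKM with anti–VEGF-B and 3.04, 2.70 and 1.99 FPKM with IgG, so that it was low in the libraries in which Mrpl53 was high. Reads of the shared stretch could have been split between them, and the value of Mrpl53 is uncertain.

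The next 5 positive values, for Mrpl1, Mrps35, Mrpl48, Mrpl9 and Mrpl45, lay between 0.19 and 0.27. In each the 3 anti–VEGF-B libraries were above the 3 IgG libraries, and none was called (limma adjusted p between 0.0518 and 0.121). Mrpl1, at the stalk through which deacylated tRNA leaves, read 8.68, 7.70 and 8.43 FPKM against 6.87, 6.22 and 6.95 FPKM. After median centring all 5 were called, and after quantile or cyclic loess normalization Mrpl1, Mrps35 and Mrpl48 were. RefSeq lists a pseudogene of Mrpl48, with which reads could be shared.

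Levels of the 77 genes spanned a ratio of 85.3 between the most and the least abundant, with a median of 7.48 FPKM. Mrpl45, which tethers the ribosome to the inner membrane, was the most abundant at 117, 114 and 109 FPKM with anti–VEGF-B and 105, 94.4 and 97.9 FPKM with IgG (log2 fold change 0.19 ± 0.072, limma adjusted p = 0.0692). Mrps6, Mrpl9, Mrpl18 and Mrpl52 followed, with means of 68.3, 57.9, 56.2 and 39.1 FPKM. Of these, Mrps6 was highest in IgG replicate 1 at 86.3 FPKM, against 61.6 to 68.1 FPKM in the other libraries. Its span overlaps that of Slc5a3, a transporter gene on the same strand. The 5 genes together held 35.5% of the FPKM of all 77. The 5 lowest were Mrps2, Mrpl17, Mrpl13, Mrps25 and Mrpl41, with means of 1.25 to 1.64 FPKM.

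By mean level, of 17 genes with a mean under 3 FPKM, 4 fell (23.5%, against 26.3% of all genes tested at that level), with a median log2 fold change of -0.17 where that of all genes in the range was -0.23. Of 35 genes between 3 and 10 FPKM, 2 fell (5.71%, against 27.9%), with a median of -0.085 where that of all genes in the range was -0.19. Among 18 genes between 10 and 30 FPKM 0 fell in limma (against 21.1%) and 1 rose (5.56%, against 6.12%), with a median of -0.038 against -0.096. Among 7 above 30 FPKM 0 fell in limma (against 13.2%) and 1 rose (14.3%, against 14.7%), with a median of 0.15 against 0.034. Across genes the Spearman correlation of mean level and log2 fold change was 0.288 over the 77 and 0.278 over all genes tested, and these points share the same 6 libraries.

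Values nearest to 0 belonged to Mrpl50, Mrpl12, Mrps18b, Mrps5, Mrps34 and Mrps9. Mrpl50 read 13.6, 11.8 and 13.6 FPKM with anti–VEGF-B and 12.7, 12.5 and 13.7 FPKM with IgG. Its log2 fold change had a 95% interval of -0.20 to 0.20 and that of Mrpl12 one of -0.17 to 0.17, so a change within these bounds was not resolved. As deposited 5 of these 6 genes were below 0 and Mrpl50 was at 4.78e-05, and after quantile, median and cyclic loess scaling all 6 were above 0.

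By subunit, with Mrps36 counted apart, 5 of 51 large subunit genes fell (9.8%) and 2 rose (3.92%), against 23.8% and 4.87% of all genes tested, with a median log2 fold change of -0.073. Of 25 small subunit genes tested 1 fell (4%) and none rose in limma, where 1 was higher at an unadjusted p under 0.05. With no moderation of the variance no gene of either subunit was called, where 0.0681% of all genes tested were lower and 0.0681% higher. The small subunit median was -0.10. Of the 25 values 22 were below 0 (88%), against 30 of 51 in the large subunit (58.8%) and 71.2% of all genes tested. Both medians were above that of all genes tested. Small subunit proteins that bind near the decoding site were within this range. Mrps12 read 4.33 to 4.84 FPKM with anti–VEGF-B and 4.43 to 6.44 FPKM with IgG (-0.18 ± 0.12, limma adjusted p = 0.300), and Mrps7 7.51 to 9.41 and 9.83 to 11.4 FPKM (-0.29 ± 0.10, limma adjusted p = 0.0630). The groups were apart for Mrps7 and overlapped for Mrps12.

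The FPKM of all 77 genes summed to 922.8 ± 37.9 (SD, n = 3) in the anti–VEGF-B libraries and 922.3 ± 31.7 in the IgG libraries, or 0.342% and 0.345% of the total. Large subunit genes summed to 698, 642 and 663 FPKM with anti–VEGF-B and 664, 641 and 625 FPKM with IgG. The small subunit genes summed to 249, 233 and 243 FPKM and to 279, 254 and 257 FPKM. The mean of the large sum was thus higher with anti–VEGF-B (667.8 against 643.2 FPKM) and that of the small sum lower (241.8 against 263.4 FPKM). The ratio of the large to the small sum was 2.80, 2.76 and 2.73 with anti–VEGF-B and 2.38, 2.52 and 2.43 with IgG. The ratio does not change when all values of a library are multiplied by the same factor, and the groups were apart. It was computed on the deposited FPKM only, and not after quantile, median or cyclic loess scaling. With 3 against 3 libraries an exact permutation test cannot go below 0.10, and none was run. A few abundant genes carried much of this difference. With Mrpl45, Mrpl9 and Mrpl18 left out of the large sum the ratios were 1.83, 1.75 and 1.77 against 1.62, 1.76 and 1.63, which overlapped. With Mrps6 left out of the small sum as well they were 2.51, 2.38 and 2.39 against 2.35, 2.33 and 2.22, which were apart by a narrow margin. On the log2 scale, where each gene weighs the same, the mean of the large minus that of the small subunit genes was 0.247, 0.167 and 0.174 with anti–VEGF-B and 0.151, 0.182 and 0.146 with IgG, and the groups overlapped.

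**Figure D3:**
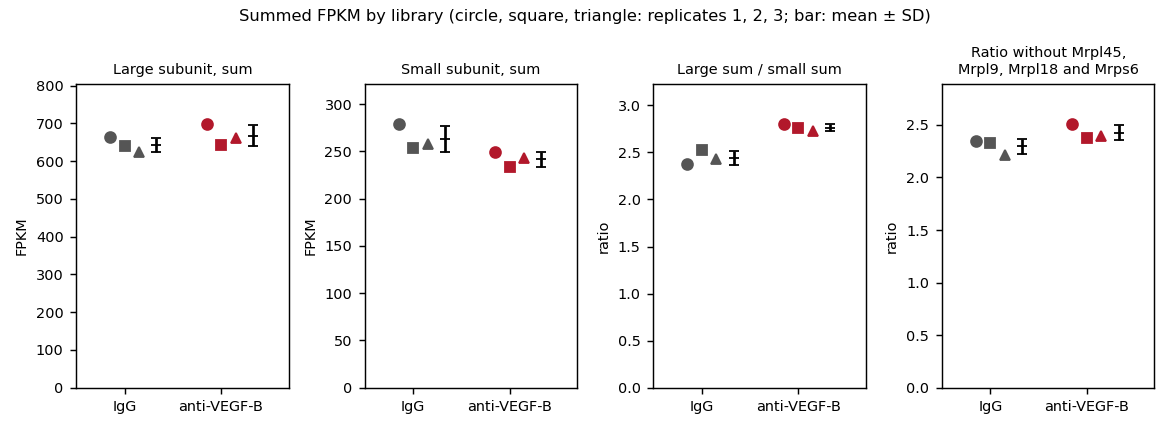
Summed FPKM of the 51 large and 25 small subunit genes and the ratio of the sums (vertical axes, from 0) in each library with IgG and anti–VEGF-B, with bars for the mean ± SD (n = 3). The ratio was 2.73 to 2.80 with anti–VEGF-B and 2.38 to 2.52 with IgG, and the gap narrowed in the last panel, without the 4 most abundant genes.

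Proteins specific to mitochondria accounted for 6 of the 8 called genes. Of 31 such genes 5 fell (16.1%) and 1 rose (3.23%), with a median log2 fold change of -0.053. Of 45 genes of proteins with bacterial relatives 1 fell and 1 rose (2.22% each), with a median of -0.13. Both shares of falls were below the 23.8% of all genes tested.

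Mrps18a, Mrps18b and Mrps18c encode 3 related proteins, of which the first is in the large and the others are in the small subunit. Mrps18a read 3.04 to 3.47 FPKM with anti–VEGF-B and 3.75 to 4.16 FPKM with IgG, with groups apart (log2 fold change -0.20 ± 0.097, limma adjusted p = 0.146). Mrps18b and Mrps18c had overlapping groups, with log2 fold changes of -0.011 ± 0.11 and -0.13 ± 0.10 (limma adjusted p = 0.944 and 0.335). All 3 were above 0 after quantile, median and cyclic loess scaling. Mrpl58, a peptidyl-tRNA hydrolase built into the large subunit that frees stalled chains, read 3.07 to 4.42 FPKM against 3.08 to 3.57 FPKM (0.13 ± 0.12, limma adjusted p = 0.461). Mrps36, the dehydrogenase protein, read 14.4, 11.1 and 14.1 FPKM with anti–VEGF-B and 15.3, 16.3 and 15.3 FPKM with IgG, with groups apart (-0.24 ± 0.10, limma adjusted p = 0.116). RefSeq lists pseudogenes of Mrps36 too. None of these 5 genes was called.

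Some single values stood out in 1 library. Mrps23, a small subunit protein, read 21.9 FPKM in IgG replicate 3 and 12.8 to 14.8 FPKM in the other 5 libraries, and this was the library with the high myeloid markers. The part of other cells in that value was not tested. Anti–VEGF-B replicate 2 held the lowest value of 31 of the 77 genes (40.3%, against 17.4% of all genes tested), and IgG replicate 2 the highest of 27 (35.1%, against 50.9%). Without anti–VEGF-B replicate 2, 2 of the 77 genes were called lower and 2 higher (2.6% each), against 16.2% and 3.24% of all genes tested.

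Ribosomal proteins of the cytosol offer a comparison of like function. Of 79 such genes tested none fell or rose in limma, 1 was lower and 3 were higher at an unadjusted p under 0.05, and no other test was run on them. Their median log2 fold change was 0.073, and 75 of 79 lay above the median of all genes tested, against 48 of 77 for the mitochondrial set. They were also more abundant, with a median of 738 FPKM. Nuclear-encoded genes of the respiratory chain, the partners of the proteins that mitochondrial ribosomes make, had 12 falls (15.8%, against 23.8% of all genes tested) and 3 rises (3.95%, against 4.87%) among 76 genes tested, and a median of -0.088, close to the -0.085 of the ribosomal genes. These are descriptions, since the lists share libraries and genes are not independent replicates.

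**Figure D4:**
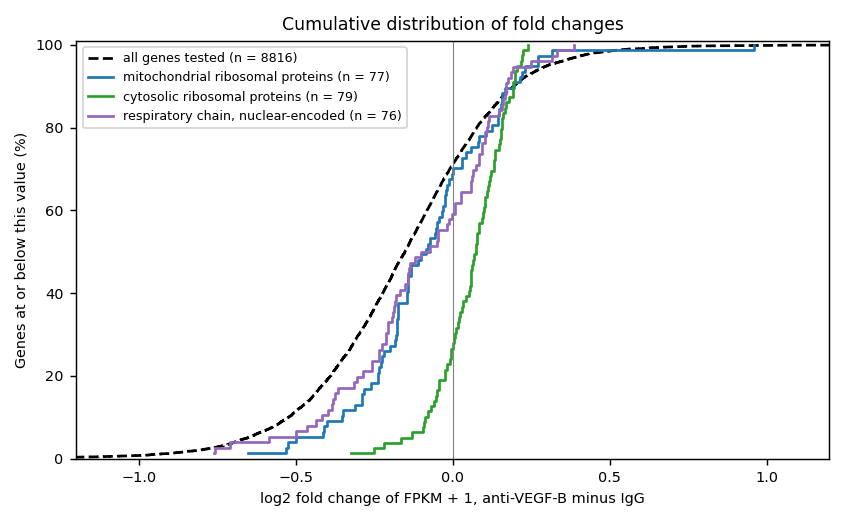
Cumulative percentage of genes (vertical axis) at or below a log2 fold change of FPKM + 1 (horizontal axis, anti–VEGF-B minus IgG) for all 8816 genes tested, 77 mitochondrial and 79 cytosolic ribosomal protein genes and 76 nuclear-encoded respiratory chain genes. The medians are -0.15, -0.085, 0.073 and -0.088, and the cytosolic curve is the steepest.

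Ribosomal proteins with other symbols were listed for 5 genes. Gadd45gip1, whose product is the large subunit protein mL64, rose, at 42.1, 44.5 and 40.5 FPKM with anti–VEGF-B and 37.7, 31.6 and 33.6 FPKM with IgG (log2 fold change 0.30 ± 0.085, limma adjusted p = 0.0301). The groups were apart, and the call was lost without anti–VEGF-B replicate 1, 2 or 3 (limma adjusted p = 0.0670, 0.0830 and 0.0638) and without IgG replicate 2 or 3 (0.0917 and 0.0747). Its value reached 0.50 after median centring. Dap3, a GTP-binding small subunit protein, read 12.9 to 14.1 FPKM against 11.9 to 12.4 FPKM (0.15 ± 0.079, limma adjusted p = 0.176), and was called higher after quantile, median and cyclic loess scaling (0.0317, 0.0157 and 0.0344). Chchd1, also of the small subunit, read 17.5 to 23.7 FPKM against 23.8 to 25.1 FPKM (-0.26 ± 0.11, limma adjusted p = 0.0890).

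Other genes of mitochondrial gene expression, 67 tested in all with those 5, had 10 falls (14.9%, against 23.8% of all genes tested) and 2 rises (2.99%, against 4.87%), and a median log2 fold change of -0.13. The split turned with the scaling here too, at 4 falls and 11 rises after median centring, 3 and 7 after quantile normalization and 2 and 6 after cyclic loess normalization, where 9.15%, 10.4% and 10.6% of all genes tested fell and 15.5%, 9.98% and 9.66% rose. On the list of ribosome assembly genes, which also held the exonuclease Rexo2, 3 of 19 fell (15.8%, against 23.8% of all genes tested). Ngrn, which helps to assemble the large rRNA into its subunit, read 2.42, 1.57 and 1.79 FPKM with anti–VEGF-B and 4.23, 5.06 and 4.0 FPKM with IgG (-0.90 ± 0.13, limma adjusted p = 0.00511). The groups were far apart, and the only alternative in which its call was lost was the fit without moderation (limma adjusted p = 0.0699). Rexo2, an exonuclease of short RNAs, and Tfb1m, which methylates the small rRNA, fell by 0.49 and 0.35 on the log2 scale (limma adjusted p = 0.0212 and 0.0430). Rexo2 lost the call without anti–VEGF-B replicate 1 or 3 or IgG replicate 2 (0.0554, 0.0809 and 0.0544), and Tfb1m without any 1 library except IgG replicate 1 (0.0919 to 0.121). After quantile, median and cyclic loess scaling neither was called, at -0.26, -0.29 and -0.27 for Rexo2 (limma adjusted p = 0.0789, 0.0579 and 0.0759) and -0.13, -0.15 and -0.12 for Tfb1m (0.360, 0.276 and 0.402). Mterf4, which works on the large subunit with a partner methyltransferase, was at -0.059 ± 0.12. Nsun4, also on the list of assembly genes, had a mean under 1 FPKM and was not tested. It read 0.328, 0.379 and 0.431 FPKM with anti–VEGF-B and 0.491, 0.867 and 0.578 FPKM with IgG.

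Of 11 translation factors 1 fell (9.09%, against 23.8% of all genes tested). Tsfm, the elongation factor that recharges EF-Tu, read 0.878, 0.761 and 0.693 FPKM with anti–VEGF-B and 1.24, 1.80 and 1.5 FPKM with IgG, with groups apart (log2 fold change -0.49 ± 0.11, limma adjusted p = 0.0152). Tufm, EF-Tu itself, was among the genes nearest to 0 at 23.8 to 25.3 FPKM against 22.8 to 25.9 FPKM (-0.0037 ± 0.078, limma adjusted p = 0.975). Oxa1l, the insertase to which the ribosome docks, and Mtfmt, which formylates the initiator tRNA, had groups apart at -0.29 ± 0.11 and -0.30 ± 0.12 and were not called (limma adjusted p = 0.0708 and 0.0890). Of 11 aminoacyl-tRNA genes 2 fell (18.2%, against 23.8% of all genes tested). Gatc fell by 0.65 and Iars2 by 0.51 on the log2 scale (limma adjusted p = 0.0184 and 0.0237). Without anti–VEGF-B replicate 3 the limma adjusted p was 0.0598 for Tsfm, 0.0672 for Gatc and 0.0833 for Iars2, and Iars2 also lost the call without anti–VEGF-B replicate 2 or IgG replicate 2 (0.0586 and 0.0518). After quantile, median and cyclic loess scaling Iars2 was at -0.29, -0.31 and -0.28 (limma adjusted p = 0.0829, 0.0615 and 0.0909), and Tsfm lost the call after quantile and cyclic loess normalization (-0.28 and -0.26, 0.0573 and 0.0720) and Gatc after cyclic loess normalization (-0.42, 0.0549). Fars2, the phenylalanine tRNA synthetase, read 3.20, 4.43 and 4.12 FPKM with anti–VEGF-B and 2.76, 3.50 and 2.87 FPKM with IgG, with overlapping groups (0.28 ± 0.13, limma adjusted p = 0.127). It was called higher after quantile, median and cyclic loess scaling, at 0.51, 0.48 and 0.50 (0.0172, 0.0178 and 0.0191).

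Among 21 genes of mitochondrial transcription, replication and RNA processing, 4 fell (19%, against 23.8% of all genes tested) and 1 rose (4.76%, against 4.87%). Twnk, the helicase that unwinds mitochondrial DNA, read 2.47, 2.39 and 2.49 FPKM with anti–VEGF-B and 3.65, 5.13 and 3.97 FPKM with IgG (log2 fold change -0.60 ± 0.12, limma adjusted p = 0.0110). Tfb2m, which opens the promoters of that DNA, read 6.51, 6.51 and 6.13 FPKM against 8.12, 9.75 and 8.60 FPKM (-0.41 ± 0.095, limma adjusted p = 0.0160). Hsd17b10, a subunit of the mitochondrial RNase P, rose, from 40.9 to 45.0 FPKM with IgG to 51.0 to 52.0 FPKM with anti–VEGF-B (0.26 ± 0.070, limma adjusted p = 0.0239). The groups were apart in all 3 genes. Tfb2m lost the call without anti–VEGF-B replicate 3 (limma adjusted p = 0.0618) and after quantile, median and cyclic loess scaling, at -0.23, -0.21 and -0.24 (0.0563, 0.0700 and 0.0516). Twnk was called under these scalings, with values no higher than -0.36. Hsd17b10 lost the call without any 1 library except IgG replicate 1 (0.0539 to 0.0769), with a value of 0.46 after median centring. Tfam and Polrmt, the packaging factor and the polymerase, had groups apart at -0.34 ± 0.13 and -0.27 ± 0.10 and were not called (limma adjusted p = 0.0713 and 0.0763), and Lrpprc, which stabilizes mitochondrial mRNAs, was at -0.22 ± 0.12 with overlapping groups.

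The mRNAs that this ribosome translates were all listed, as 13 genes of mitochondrial DNA. Of these 2 fell (15.4%, against 23.8% of all genes tested), both subunits of complex I. mt-Nd5 read 113, 92.3 and 103 FPKM with anti–VEGF-B and 162, 136 and 143 FPKM with IgG, with groups apart (log2 fold change -0.51 ± 0.097, limma adjusted p = 0.00927). After median centring it was at -0.31 and not called (0.0986). mt-Nd3 read 59.7, 35.7 and 49.1 against 88.9, 58.2 and 69.7 FPKM, so that the groups overlapped (-0.59 ± 0.19, limma adjusted p = 0.0475). Its call was lost without anti–VEGF-B replicate 2 or 3 or IgG replicate 1 or 3 (limma adjusted p = 0.124, 0.0950, 0.129 and 0.0813) and after quantile, median and cyclic loess scaling. The call was also lost with no filter on low values or a mean of at least 5 FPKM (limma adjusted p = 0.0583 and 0.0554). Moderation without trend and no moderation ended it too (0.0592 and 0.202). The median of the 13 genes was -0.19, and their log2 fold changes ran up to 0.037 for mt-Co2.

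Many mitochondrial ribosomal protein genes lie close to a gene on the other strand. The 5′ ends of 27 of the 77 (35.1%) were within 1000 bases of that of a listed gene on the opposite strand, against 15.1% of all genes tested, counting ends that overlap. The genes were also short, with a median span of 7894 bases against 22296 bases. With the untested Mrps10 counted, the 78 genes were spread over 17 chromosomes, with 11 on chromosome 11 and 8, Mrps10 among them, on chromosome 17. In 21 pairs both genes were tested, and 13 pairs had values of the same sign, where 71.2% of all genes tested were below 0.

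Only 1 pair had both genes called, Mrpl18 and Tcp1, a subunit of the cytosolic chaperonin. Tcp1 read 200, 191 and 207 FPKM with anti–VEGF-B and 169, 149 and 166 FPKM with IgG (log2 fold change 0.30 ± 0.077, limma adjusted p = 0.0203). Like Mrpl18 it lost the call without anti–VEGF-B replicate 1 or 3 or IgG replicate 2 (0.0551, 0.0812 and 0.0544), and it was at 0.51 after median centring. Their spans overlap, with 5′ ends 644 bases apart. Since the strand setting of the counting is not given, reads of the overlap cannot be told apart. The same limit holds for the called genes Mrpl44 and Mrpl49, whose spans overlap those of Wdfy1 and Syvn1 on the opposite strand. In 7 pairs only the partner was called, and in each of these it was lower with anti–VEGF-B, the direction of 23.8% of all genes tested against 4.87% called higher. Twnk, described above, lies 116 bases from Mrpl43, which read 22.5 to 26.6 FPKM with anti–VEGF-B and 23.9 to 26.8 FPKM with IgG (-0.073 ± 0.088, limma adjusted p = 0.549). Zfp189, a zinc finger gene 83 bases from Mrpl50, was at -0.64, and Ppp1r10, a phosphatase subunit gene 45 bases from Mrps18b, at -0.67 (limma adjusted p = 0.00992 and 0.00872), while Mrpl50 and Mrps18b were at 4.78e-05 and -0.011. Ncapd2, of the condensin complex, fell by 0.66 on the log2 scale 100 bases from Mrpl51, which was at -0.35 ± 0.13 (limma adjusted p = 0.0713). The other 3 such partners were Ndufs6, Mtbp and Tmem63b, beside Mrpl36, Mrpl13 and Mrpl14. In 3 pairs only the ribosomal gene was called, Mrpl44 beside Wdfy1, Mrpl57 beside Ska3 and Mrpl49 beside Fau, and Fau, a cytosolic ribosomal protein gene, was on the other side of 0 at 0.19. The differences within pairs were not tested.

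**Figure D5:**
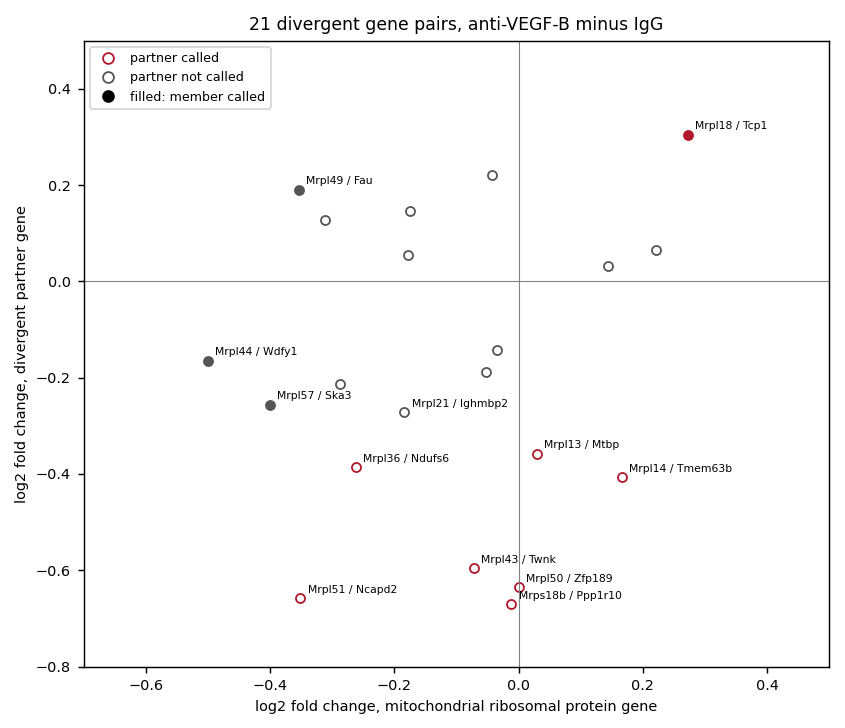
Log2 fold change (anti–VEGF-B minus IgG) of a mitochondrial ribosomal protein gene (horizontal axis) and of the gene whose 5′ end lies within 1000 bases on the other strand (vertical axis) for the 21 pairs with both genes tested. Red points have a called partner and filled points a called ribosomal gene, and only Mrpl18 with Tcp1 (0.27 and 0.30) is both.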

How the data were processed

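RNA of 6 libraries, 3 per antibody, was measured. Per gene and library the authors deposited FPKM, for 10995 genes that code for proteins, from stranded libraries with hisat2, StringTie and Ballgown on GRCm38, and neither a scaling between libraries nor the filter behind the list is stated. FPKM keep no read numbers, so the depth is unknown and errors come from the spread of the 3 libraries. Of the listed genes 5 were at 0 in all libraries.

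With R 4.3.3 and limma 3.58.1, genes whose mean reached 1 FPKM (8816) entered a fit of log2(FPKM + 1) with empirical Bayes moderation and trend, with no covariate, and a gene was called at a Benjamini-Hochberg adjusted p under 0.05 over all 8816. Values ± are SE for fold changes. The method was tested on simulated data. Members and lists were chosen with earlier results of these data known. The genes named were the 8 most negative, 8 most positive, 6 nearest 0, 5 highest and 5 lowest of the ribosomal genes, some by role (the stalk, the Mrps18 genes, Mrpl58, Mrps30, Mrps36, Mrps12 and Mrps7), Mrps10 under the filter, and from each list of other mitochondrial genes the 3 with the lowest p, with Dap3, Tufm, Tfam, Polrmt, Lrpprc and Mterf4. Nsun4, also under the filter, was chosen with these. Genes of mitochondrial DNA, neighboring genes, Mrps23, Mrpl43, Mrpl51, Cd3e and Cd5 were named after their values were seen. Names and pseudogenes were read from RefSeq (GRCm38.p6), coordinates from the deposited table. A search of promoter sequences for motifs was not run, and some results are not reported here. The alternatives changed the scaling, filter, pseudocount, moderation, replicate block and libraries included.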

Additional observations from a re-analysis of the deposited data

How the results depend on the processing

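The split of the 77 ribosomal genes into 6 lower and 2 higher moved with the scaling between libraries, with 2 and 9 under quantile normalization, 1 and 13 under median centring and 2 and 9 under cyclic loess normalization. The median of the ribosomal genes, -0.085 as deposited, moved to 0.0985, 0.116 and 0.0872. Relative to all genes tested it was 0.067 as deposited and moved by less than the spread between replicates in each alternative. The other mitochondrial genes, 10 lower and 2 higher as deposited, moved to 3 and 7, 4 and 11, and 2 and 6 under the same scalings. With a mean of at least 5 FPKM, where 50 ribosomal genes were tested, 2 were called lower, and 1 of the other mitochondrial genes was. The ribosomal share was 4%, where 20.1% of all genes tested were called lower. With no moderation of the variance 0 genes of either list were called lower and 0 higher by limma. In either direction 19 and 22 genes were at an unadjusted p under 0.05. That fit called 0.0681% of all genes tested lower and 0.0681% higher. The same sum of FPKM, no filter, a pseudocount of 0.1 and moderation without trend left the counts of ribosomal genes at 6 and 2. Scaling to the same sum ended the call of Mrps30 (limma adjusted p = 0.0505) and gave a call to Mrpl53 (0.0473), so that the 2 rises were then Mrpl18 and Mrpl53. Leaving out 1 library at a time gave 2 to 6 ribosomal genes lower and 0 to 3 higher, and 3 to 10 and 0 to 2 of the other mitochondrial genes. In the same fits 7.88% to 23.5% of all genes tested were called lower and 1.86% to 4.49% higher. Counts of 0 higher came from limma. Without anti–VEGF-B replicate 3, for example, 15 ribosomal genes were at an unadjusted p under 0.05, counted in either direction and so not only rises. The cause of these changes was not tested.

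With the replicate number as a block, 8 ribosomal genes were called lower (10.4%, against 23.9% of all genes tested) and 4 higher (5.19%, against 5.32%). The numbers share no stated source, and deviations of libraries with the same number correlated at -0.0296, 0.11 and 0.0891, so they were not taken as pairs. Under the block Mrpl41 lost its call (limma adjusted p = 0.0514), and Mrpl10, Mrpl2, Mrps7, Mrpl53 and Mrpl9 gained one.

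Of the values of single genes under an alternative, 832 kept their direction and side of the threshold, 128 lost a call, 35 gained one and 65 changed sign. None of the sign changes was of a called gene. As deposited the genes concerned ran from -0.20 for Mrps18a, -0.18 for Mrps12 and -0.15 for Mrps6 to values closer to 0. After quantile normalization the log2 fold change was 0.119 for Mrpl12, 0.184 for Mrps18b, 0.211 for Mrps5, 0.139 for Mrps34, 0.174 for Mrps9, 0.110 for Mrps25, 0.0299 for Mrps18a, 0.0128 for Mrps18c, 0.0280 for Mrps12, 0.0690 for Tufm, 0.181 for Mterf4, 0.00138 for Mrpl43 and -0.0785 for mt-Co2. After median centring it was 0.200 for Mrpl12, 0.189 for Mrps18b, 0.183 for Mrps5, 0.179 for Mrps34, 0.177 for Mrps9, 0.0553 for Mrps6, 0.0904 for Mrps25, 0.00127 for Mrps18a, 0.0681 for Mrps18c, 0.0237 for Mrps12, 0.197 for Tufm, 0.142 for Mterf4 and 0.128 for Mrpl43. After cyclic loess normalization it was 0.10 for Mrpl12, 0.183 for Mrps18b, 0.209 for Mrps5, 0.129 for Mrps34, 0.158 for Mrps9, 0.122 for Mrps25, 0.0228 for Mrps18a, 0.00414 for Mrps18c, 0.0288 for Mrps12, 0.0584 for Tufm, 0.169 for Mterf4 and -0.0772 for mt-Co2. Mrpl50 was at -0.0149 with the same sum of FPKM and at -6.96e-05 with a pseudocount of 0.1. Without 1 library at a time the log2 fold change ran from -0.0311 to 0.0621 for Mrpl50, -0.0330 to 0.0233 for Mrpl12, -0.102 to 0.0554 for Mrps18b, -0.0857 to 0.0299 for Mrps5, -0.0745 to 0.0141 for Mrps34, -0.0814 to 0.0376 for Mrps9, -0.0024 to 0.0805 for Mrpl17, -0.00025 to 0.0649 for Mrpl13, -0.0565 to 0.0321 for Tufm and -0.0773 to 0.132 for mt-Co2.

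Since FPKM keep no read numbers, counting error could not be set apart from the spread of 3 libraries, and a change of a ribosomal gene under about 0.20 on the log2 scale was not resolved for genes such as Mrpl50, whose 95% interval ran from -0.20 to 0.20.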
